A study of Homo sapiens with 8 samples.

Results

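The knockdown of UHRF1 in UF1hypo cells was followed by RNA-seq of polyA RNA in 4 of the 8 libraries of the series, taken by their labels. UF1hypo is a clone of HCT116, a human colorectal cancer cell line, in which 1 copy of UHRF1 had been disrupted with CRISPR, so that all 4 libraries carry this lesion and all descend from 1 clone. The 2 UF1hypo shUHRF1 libraries came from cells given a lentiviral hairpin against UHRF1 and selected with puromycin as stable pools. The 2 UF1hypo shScr libraries came from cells given a control hairpin (shScr) in the same way. The other 4 libraries, HCT116 cells with the same hairpins, entered the fit and the test of the difference between the lines. The pools were harvested at either of 2 time points after infection, and which of them applies to these libraries is not given in the sources used here. Nothing says that the libraries of a group were separate cultures, so the p-values measure the spread between these libraries, which may be technical.

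UHRF1 binds hemimethylated CpG sites left behind the replication fork, and brings DNMT1 there to methylate the new DNA strand. Dense CpG methylation at a start site goes with silence of the gene, and genes of the germline, a set of tumor suppressor genes (TSGs) and endogenous retroviruses are textbook examples in tumor cells. Double-stranded RNA from retroviral elements is known to be read by the sensors RIG-I and MDA5, which switch on interferon genes.

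Expression is given as TPM, StringTie's measure of transcript abundance, which the authors scaled for gene length and to an equal total in each library. The log2 fold change is the difference between the group means of log2(TPM + 1), shUHRF1 minus shScr, with its standard error (SE) from limma, and it is too small for genes of low TPM. Genes entered the test if at least 1 of the 4 libraries had a TPM above 1. A gene is said to have risen or fallen, or to be called, when the adjusted p-value of limma (Benjamini-Hochberg, over all genes tested) was below 0.05 and the absolute log2 fold change above 1. Each group had n = 2 libraries throughout, and library 1 and library 2 are the shUHRF1 replicates by their labels. An exact permutation test of 2 libraries against 2 cannot give a two-sided p below 0.333 for a single gene, so the calls rest on the spread shared over genes and groups.

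The shUHRF1 libraries stood apart from each other more than the replicates of any other group. Across genes, which are not independent replicates, Pearson's r between replicates was 0.954 in UF1hypo shUHRF1 and 0.991 to 0.992 in the other groups. The SD of the difference between replicates was 0.64 on the log2 scale there and 0.278 to 0.305 in the others. This difference moved with transcript GC content, for which Spearman's rho across genes was 0.818, against −0.512 in UF1hypo shScr and −0.04 and −0.07 in the HCT116 groups. In the lowest of 10 bins of GC content (up to 38.7%, 1362 genes), library 1 lay below the shScr mean by a median log2 value of −0.72 and library 2 above it by 0.30. In the highest bin (from 62.8%), library 1 lay above the shScr mean by 0.54 and library 2 had a median difference of −0.0022. The share of genes called higher went from 1.18% in the lowest to 13.0% in the highest bin, and from 3.08% to 9.62% after each library had been centred on its medians in bins of GC content and transcript length. Values are therefore given for each library, and the main lists also by their counts under that correction.

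The depth of the UF1hypo libraries, as aligned bases, was 7.39 and 7.16 gigabases with shScr and 7.84 and 6.84 with shUHRF1, in a range of 5.42 to 7.84 over the series. The number of annotated genes with a TPM above 1 was 15188 and 15165 with shScr, and 16583 and 16819 with shUHRF1. The depth behind a single gene is unknown because the files hold no read counts, and a TPM of 0 is given as listed at 0. In bulk RNA, fewer expressing cells and less RNA per cell cannot be told apart. The cells kept epithelial keratins, with KRT8 and KRT18 at a TPM of 2324 or more in every library. EPCAM, an epithelial adhesion molecule, was at 357 and 327 with shScr against 174 and 314 with shUHRF1 (log2 fold change −0.55, adjusted p = 0.188), so that library 1 lay low. The colon markers CEACAM6 and SLC26A3 were listed at 0 in all 4 and VIL1 did not exceed 0.142.

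The TPM of UHRF1 itself was 47.3 and 50.6 in the controls and 34.1 and 21.1 in the knockdown libraries. Both knockdown libraries lay below both controls, library 2 further than library 1, by log2 values of −1.17 and −0.51. The fitted change of −0.84 (limma, SE 0.22, adjusted p = 0.0406) missed the fold threshold, its adjusted p was 0.2 with the UF1hypo libraries alone and 0.174 and 0.199 without shScr replicate 1 or 2, and after the GC correction it was −1.01 (adjusted p = 0.0017). DNMT1, the maintenance methyltransferase that UHRF1 recruits, had TPM values of 147 and 162 with shScr against 204 and 172 with shUHRF1 (log2 fold change 0.28, adjusted p = 0.278). DNMT3B, a methyltransferase that can set new marks, had a log2 fold change of 0.51 (adjusted p = 0.122). Of 22 tested genes of the DNA methylation machinery 0 were called by limma, with 3 higher and 2 lower at an unadjusted p below 0.05. Of 22 genes of histone-based silencing 0 were called as well, with 0 higher and 2 lower at that p. Without library 2, 2 of each list were called lower.

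Of the 13620 protein-coding genes tested for the knockdown, 8.53% were called, 7.39% higher (1007 genes) and 1.14% lower (155 genes). In all 1162 called genes both shUHRF1 libraries lay outside the range of the shScr libraries. Of the genes called higher, 769 (76.4%) exceeded the shScr mean by more than 1 log2 unit in both libraries. A further 172 did so in library 1 only, with a median GC content of 59.7%, and 66 in library 2 only, with a median of 44.3%. Of the genes called lower, 78 (50.3%) lay more than 1 below in both libraries, 55 in library 1 only and 22 in library 2 only. Genes past the threshold in library 1 alone and in library 2 alone thus differed in GC content, as the libraries themselves did. The GC correction gave 923 genes higher, of which 821 were shared, and 211 lower, of which 132 were shared. The median log2 fold change of all tested genes was 0.04, and 86.7% of calls were higher. Quantile normalization moved this median to −0.07 and gave 669 genes higher and 335 lower (66.6% higher), and changes are relative to such a shift. The number of called genes was 655 and 775 without shScr replicate 1 or 2, 1121 without library 1 and 2255 without library 2, of which 861 were lower.

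Many of the calls higher fell on genes of low TPM in the controls, which the filter let in by their shUHRF1 values. Of 1027 tested genes with a TPM of at most 1 in both shScr libraries, 443 were called higher, and their mean TPM with shUHRF1 had a median of 2.61. Such genes were tested only because they exceeded a TPM of 1 in a shUHRF1 library, so that the filter itself sets their direction and the share supports nothing. The same holds for such genes in each of the lists that follow. Only 43 of the 443 reached a TPM of 10 in both shUHRF1 libraries, and 5 reached 50. For 107 of them both shScr libraries were listed at 0. Among the 12593 genes with a shScr library above 1, 564 rose (4.48%). In the other direction, 14 genes called lower ended at a TPM of at most 1 in both shUHRF1 libraries.

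**Figure D1:**
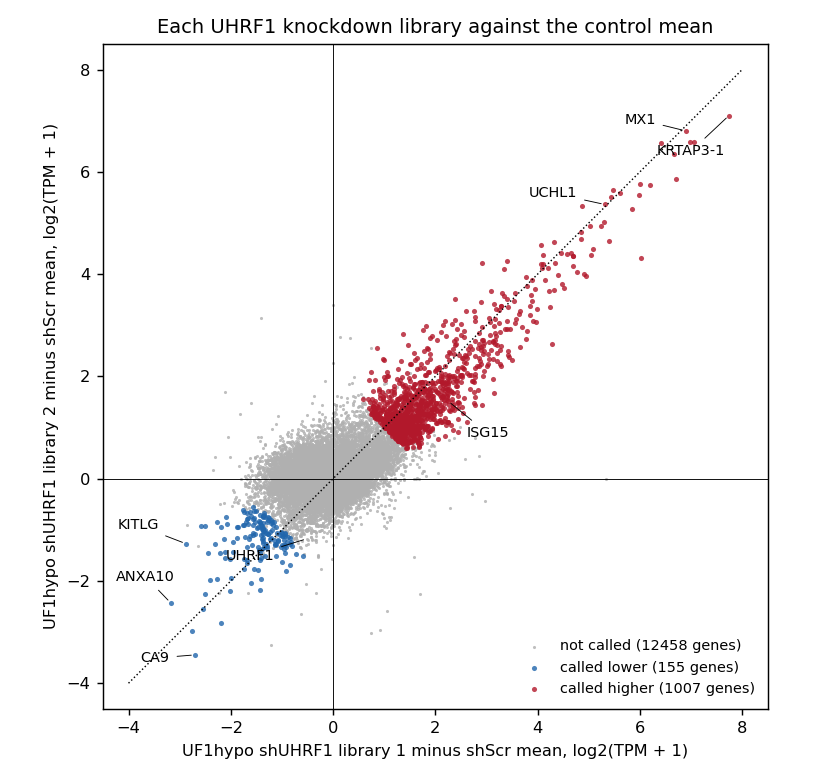
Difference of shUHRF1 library 2 from the shScr mean against that of library 1, on the log2(TPM + 1) scale, for each tested gene, with the 1007 genes called higher in red, the 155 called lower in blue and the diagonal dotted. Differences above 1 in both libraries were found in 787 genes and below −1 in both in 90, while 9 genes passed 1 in opposite directions.

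Among genes with a group mean TPM of at least 10, the largest increases belonged to genes of low TPM in the controls. KRTAP3-1, a keratin-associated protein of the hair shaft, had TPM values of 2.19 and 2.11 with shScr against 673 and 431 with shUHRF1, a log2 fold change of 7.42 (SE 0.40, adjusted p = 1.56e-05). MX1, a GTPase that blocks viral replication, went from 4.22 and 4.49 to 637 and 595 (6.85, SE 0.19, adjusted p = 2.03e-06). CTAG2, a cancer-testis antigen, went from 1.31 and 0.227 to 223 and 160 (6.82, SE 0.32). In these genes the groups were far apart and both libraries carried the change. GAGE2A, PNMA5, MAGEA4, MAGEA1 and MAGEA10, all of the cancer-testis class, rose by 5.56 to 6.79 on the log2 scale. KRT17, a keratin of stressed and basal epithelium, was at 0.406 and 0.484 with shScr against 150 and 83.4 with shUHRF1 (6.29). SLC15A3, a lysosomal transporter of peptides and histidine, rose from 0.881 and 0.866 to 137 and 98.6 (5.97). KRT81, a hair keratin, rose from 5.94 and 5.46 to 427 and 361 (5.88), and GPX3, a secreted glutathione peroxidase, from 0.0589 and 0.163 to 69.3 and 50.8 (5.76). KRT81 has a close copy in KRT86, and the GAGE genes are near-identical to each other, so that reads may have been split or shared among copies and the value of a single copy is uncertain.

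The largest decreases by the same rule were smaller in size. CA9, a membrane carbonic anhydrase induced by hypoxia, had TPM values of 13.0 and 16.1 with shScr against 1.38 and 0.42 with shUHRF1, a log2 fold change of −3.07 (SE 0.29, adjusted p = 0.000339). RAB26, a GTPase of secretory granules, was at 40.1 and 52.1 with shScr against 5.93 and 4.90 with shUHRF1 (−2.87, SE 0.20). ANXA10, a gastric annexin, was at 62.5 and 70.2 with shScr against 6.42 and 11.5 with shUHRF1 (−2.80). Both libraries lay below the controls in each case, as the selection required. HS3ST1 (−2.51), which sulfates heparan chains, WNT16 (−2.19), a WNT ligand, NR2F1 (−2.1), an orphan nuclear receptor, SCG2 (−1.83), a granin of secretory vesicles, UNC13A (−1.82), which primes synaptic vesicles, and MND1 (−1.80), a meiotic recombination factor, fell as well.
KITLG, the ligand of the receptor KIT, had a TPM of 334 and 275 with shScr, but 40.3 in library 1 and 125 in library 2 (−2.07, SE 0.42, adjusted p = 0.0141). GNAI1, an inhibitory G protein subunit, had controls of 123 and 56.1 and knockdown values of 20.1 and 20.8 (−1.97, adjusted p = 0.00422). ERRFI1, a feedback inhibitor of EGFR, went from 474 and 399 to 78.9 and 158 (−1.95, adjusted p = 0.00276). KITLG transcripts have a GC content of 35.3%, in the range where library 1 lay low, and its change was −1.83 after the GC correction. Without shScr replicate 1 or 2 its change was −1.93 or −2.22 and was not called, and neither KITLG nor GNAI1 was called with the UF1hypo libraries alone.

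Of the 6 called genes with the largest gain in TPM, 5 are in the list of interferon-stimulated effectors. ISG15, a ubiquitin-like protein, went from 2054 and 2379 to 10510 and 6330, and IFI6, a mitochondrial and endoplasmic reticulum protein, from 1721 and 1698 to 5555 and 5921. The others of that list were IFI27, IFITM1 and BST2. LY6E, a GPI-anchored protein of the LY6 family that the list does not hold, went from 598 and 737 to 2605 and 1570 (1.61). The 6 with the largest loss were S100A4, a calcium-binding protein of motile cells, from 1519 and 1491 to 571 and 761 (−1.19), ADIRF, a factor named for adipogenesis, from 534 and 709 to 191 and 202 (−1.64), SAT1, which acetylates polyamines, ERRFI1, SLC38A2, a glutamine transporter, and HMGB2, a chromatin protein of proliferating cells. HMGB2 was at 456 and 394 with shScr against 109 and 179 with shUHRF1 (−1.6). For SAT1 and SLC38A2 the decrease was stronger in library 1, with log2 differences of −1.69 and −2.50 against −0.84 and −0.92, and neither passed the fold threshold without library 1, nor did S100A4 at −0.98. Without shScr replicate 1 or 2 the fitted changes of SAT1 (−1.29 and −1.25) and SLC38A2 (−1.53 and −1.89) were not called.

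**Figure D2:**
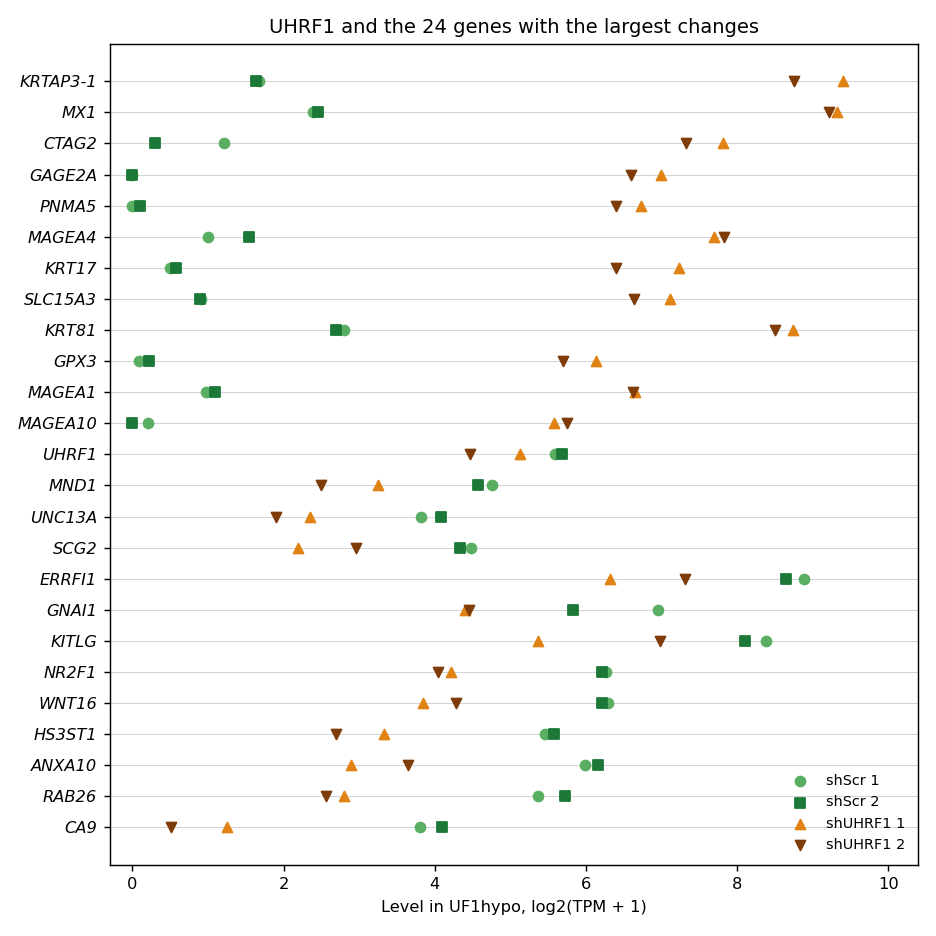
Level in each UF1hypo library, as log2(TPM + 1), of UHRF1 and of the 12 genes with the largest increase and the 12 with the largest decrease among called genes with a group mean TPM of at least 10, a point per library. The selection of these genes required shUHRF1 points outside the range of the shScr points, and those of UHRF1 lie outside it too. For KITLG library 1 (TPM 40.3) and library 2 (TPM 125) lie apart.

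Most tested cancer-testis antigens, proteins made by germ cells and by tumors that have lost methylation, were called higher. Of 59 genes listed, 35 could be tested, and 30 rose and 0 fell, against 7.39% higher among all genes, with a median log2 fold change of 3.02. The median was 2.77 in library 1 and 3.13 in library 2, and 29 were called after the GC correction. The 20 tested members with both shScr libraries at a TPM of at most 1 all rose, but the filter sets their direction, so their calls support nothing. They are part of the 30 and of the medians. The 35 included 5 that did not pass, MAGEA3, MAGEB1, MAGEB2, PAGE2 and CSAG3, named after their values were seen. The TPM summed over the list was 412 and 392 with shScr against 1456 and 1508 with shUHRF1. MAGEA4 had TPM values of 1.01 and 1.91 with shScr against 206 and 227 with shUHRF1 (6.49), MAGEA1 0.962 and 1.14 against 99.1 and 97.2 (5.60), and MAGEA10 0.151 and 0 against 46.7 and 52.6 (5.56). SSX1, a repressor made in testis, had 0.179 and 0.493 against 10.8 and 13.2 (3.28). In each of these both libraries rose to nearly the same level. PNMA5, a paraneoplastic antigen of the PNMA family, was at 0 and 0.0666 with shScr against 105 and 83.4 with shUHRF1.
GAGE2A, on the plus strand of the X chromosome, was listed at 0 in both shScr libraries and at 126 and 95.5 with shUHRF1 (log2 fold change 6.79, which depends on the added 1). The 250 bases before its RefSeq start site (GRCh38.p14, chrX:49589246-49589495, given 5′ to 3′ on the gene's strand, with CpG sites, the letters that can be methylated, in capitals) are shown as an example of the class.
GAGE2A: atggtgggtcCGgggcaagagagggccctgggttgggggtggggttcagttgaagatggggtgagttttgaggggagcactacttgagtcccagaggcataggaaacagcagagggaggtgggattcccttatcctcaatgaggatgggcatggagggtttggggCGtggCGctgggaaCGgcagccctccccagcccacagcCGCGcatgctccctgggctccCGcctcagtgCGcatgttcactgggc
They hold 8 CpG sites. The median over the 25 cancer-testis genes called higher that have an entry in the RefSeq promoter table was also 8, against 20 over all 10820 tested genes with an entry.

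Of 49 other germline genes listed 18 were tested, and 7 (38.9%, against 7.39% of all genes) rose and 0 fell, with 9 higher after the GC correction. All 7 were among the 11 with both shScr libraries at a TPM of at most 1, whose direction the filter sets, so the count supports nothing. MAEL, a factor of the piRNA pathway that silences transposons, was listed at 0 in both shScr libraries and had a TPM of 5.02 and 8.67 with shUHRF1. LIN28B, an RNA-binding protein of stem and germ cells that blocks let-7 maturation, was also at 0 in both and reached 2.1 and 1.76. LIN28B did not pass the fold threshold with FPKM in place of TPM. The remaining 11 tested genes were not called in either direction.

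Sensors of nucleic acids are the entry point of the interferon response. Of 21 tested sensing genes 9 rose (42.9%, against 7.39% of all genes) and 0 fell, with a median of 0.76. RIGI, the sensor of short double-stranded RNA with 5′ triphosphates, had TPM values of 30.2 and 23.5 with shScr against 57.1 and 110 with shUHRF1 (log2 fold change 1.54, SE 0.34, adjusted p = 0.0193). IFIH1, which encodes MDA5, the sensor of long double-stranded RNA, was at 41.4 and 38.9 against 105 and 144 (1.59), and DHX58, their regulator LGP2, at 8.32 and 7.71 against 113 and 86.4 (3.47). RIGI and IFIH1 were higher in library 2 and DHX58 in library 1, and RIGI was not called with the UF1hypo libraries alone, nor without shScr replicate 1 (1.72) or 2 (1.37). ZBP1, a sensor of Z-form nucleic acid, was at 0 and 0.0393 with shScr and reached 3.64 and 3.24 (2.12). IRF7, the transcription factor that drives interferon genes, went from 128 and 150 to 608 and 407 (1.84). STING1, the adaptor of cytosolic DNA sensing, lay lower with the knockdown, at 28.8 and 34.6 with shScr against 17.4 and 13.8 with shUHRF1. Its log2 fold change of −0.99 (adjusted p = 0.0172) missed the fold threshold and was −1.14 after the GC correction, where it was called.

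Among interferons, genes of the lambda type, which acts on epithelia, were called higher. IFNL1 had TPM values of 0.627 and 0 with shScr against 14 and 9.56 with shUHRF1 (3.30, adjusted p = 0.000213). IFNL3 was at 0 and 0.112 against 10.3 and 4.65 (2.92), and is so close to IFNL2 in sequence that their reads may be mixed. Of 22 tested ligand and signalling genes 8 rose (36.4%, against 7.39% of all genes) and 0 fell, with a median of 0.68. With IFNE, the interferon ligands made up 4 of the 8. The list held 4 tested members with both shScr libraries at a TPM of at most 1, IFNL1 and IFNL3 among them. All 4 rose, but the filter sets their direction, so these calls support nothing. IRF9, the DNA-binding subunit of the factor ISGF3, went from 30.9 and 32.5 to 109 and 106 (1.73), and STAT2, its partner, from 53.7 and 54.1 to 128 and 119 (1.18). USP18, which removes ISG15 and dampens the receptor, rose by 2.11. The receptor chains in the list were not called.

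The effector genes that interferon induces rose as a group. Of 62 tested, 47 rose (75.8%, against 7.39% of all genes) and 0 fell, with a median log2 fold change of 1.68, of 1.67 in library 1 and of 1.76 in library 2. After the GC correction 54 rose. Their summed TPM was 10060 and 11080 with shScr against 38960 and 30710 with shUHRF1. The list was thus already expressed in UF1hypo cells with the control hairpin. IFIT1, which binds uncapped RNA, went from 61.5 and 54.8 to 163 and 361 (2.05), OAS1, which makes the activator of RNase L, from 65.0 and 60.8 to 220 and 235 (1.84), and OAS2 from 1.27 and 0.567 to 54.0 and 74.7 (5.10). XAF1, a pro-apoptotic partner of XIAP, went from 8.27 and 7.37 to 193 and 186 (4.44). IFITM1, which hinders viral entry, went from 283 and 350 to 2388 and 2069 (2.82), and IFI27 from 1098 and 1196 to 5057 and 3470 (1.87). OAS1 and IFITM1 thus had clear levels in the controls, whereas MX1 was below a TPM of 5 and OAS2 near 1 there.
For MX1 and BST2 the 250 bases before the RefSeq start sites are shown, since the first had the largest change of the list and the second, chosen after the motif search, holds the interferon-stimulated response element. BST2, or tetherin, which holds budding virions at the membrane, went from a TPM of 56.4 and 55.8 to 1153 and 1066 (4.28, SE 0.29, adjusted p = 5.2e-05). The windows are chr21:41420308-41420557 on the plus strand for MX1, with CpG sites in capitals, and chr19:17405631-17405880 for BST2, which lies on the minus strand, with capitals for the element.
MX1: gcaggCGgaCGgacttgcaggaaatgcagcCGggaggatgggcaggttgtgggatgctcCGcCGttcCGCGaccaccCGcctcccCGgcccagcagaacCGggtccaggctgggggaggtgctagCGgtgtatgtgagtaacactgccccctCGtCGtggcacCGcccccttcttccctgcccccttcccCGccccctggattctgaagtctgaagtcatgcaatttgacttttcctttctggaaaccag
BST2: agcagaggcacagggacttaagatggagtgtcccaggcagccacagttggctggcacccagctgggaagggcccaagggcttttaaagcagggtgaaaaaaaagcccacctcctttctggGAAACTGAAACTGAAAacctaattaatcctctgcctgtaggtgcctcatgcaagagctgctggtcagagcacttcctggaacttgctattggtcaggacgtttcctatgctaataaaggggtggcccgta
The element was searched as GAAA, any 2 bases and GAAA, on both strands, and BST2 holds 2 overlapping matches that begin 130 and 124 bases before the start site. MX1 holds none in this window and has 15 CpG sites, where BST2 has 2. Of the 49 effector genes with a promoter entry 31 (63.3%) held a match, and 19 of the 35 called higher (54.3%). The share was 2.25% over all tested genes and 3.05% over all 27305 promoters in the table. A match is a run of letters and not evidence of binding, and none in the window says nothing of the factor. Where a gene had several promoter entries, that of lowest coordinate was taken, which may not be its main start site.

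Genes of antigen presentation by MHC class I, which interferon also raises, rose in part. Of 22 tested genes 10 rose (45.5%, against 7.39% of all genes) and 0 fell, with a median of 0.89. The summed TPM was 6220 and 6457 with shScr against 10540 and 10140 with shUHRF1. PSMB8, a catalytic subunit of the immunoproteasome, went from 2.63 and 1.97 to 93.0 and 91.9 (4.83, SE 0.23, adjusted p = 7.81e-06), while its neighbour PSMB9 was already at 80.6 and 88.0 and reached 347 and 273 (1.86). TAP1, which carries peptides into the endoplasmic reticulum, rose from 121 and 130 to 344 and 291 (1.32), and NLRC5, the activator of class I genes, from 13.0 and 15.5 to 71.2 and 47.0 (1.95). HLA-B, a class I heavy chain, rose from 321 and 379 to 1011 and 776 (1.34). B2M, the light chain, was at 1025 and 1023 against 1556 and 2410 (0.92, adjusted p = 0.0169), which missed the fold threshold. B2M was called after the GC correction at 1.23. Reads of HLA genes can be shared between copies. Of 8 tested class II genes 3 rose (37.5%), among them CD74, the invariant chain, from 1.99 and 2.84 to 27.8 and 18.5 (2.81). HLA-DRA was at 4.37 and 2.83 with shScr against 2.45 and 3.19 with shUHRF1 (−0.25, adjusted p = 0.61).

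The APOBEC3 family of cytidine deaminases restricts retroviruses and retroelements. Of 6 tested members 4 rose (66.7%, against 7.39% of all genes), with a median of 1.1. APOBEC3G had TPM values of 1.04 and 0.453 with shScr against 33.2 and 41.3 with shUHRF1 (4.47, adjusted p = 2.53e-05), and APOBEC3B, which was expressed in the controls at 14.1 and 16.4, reached 32.1 and 33.9 (1.07). APOBEC3B did not pass without shScr replicate 1 (0.96), with the UF1hypo libraries alone or with FPKM. Members of this family share sequence.

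Genes silenced by promoter methylation in colorectal cancer were less uniform. Of the 10 TSGs that the study followed 9 were called, all higher, with a median of 2.12, but the study chose that list on these libraries, so that its direction is not independent evidence. All 10 had a TPM of at most 1 in both shScr libraries, and the filter thus sets their direction as well. UCHL1, a deubiquitinase, was listed at 0 in both shScr libraries and at 38.7 and 40.1 with shUHRF1 (5.34 on the scale with 1 added). The 250 bases before its RefSeq start site, chr4:41256678-41256927 on the plus strand, are shown with CpG sites in capitals for comparison with GAGE2A and KRTAP3-1.
UCHL1: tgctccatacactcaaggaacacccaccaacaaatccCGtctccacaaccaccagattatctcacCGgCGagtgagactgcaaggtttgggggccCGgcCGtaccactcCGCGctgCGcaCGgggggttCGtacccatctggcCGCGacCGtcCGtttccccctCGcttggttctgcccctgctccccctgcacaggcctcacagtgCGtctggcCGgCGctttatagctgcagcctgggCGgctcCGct
They hold 20 CpG sites, the median of all tested genes.
Of 20 other tested genes reported as hypermethylated in this cancer, 6 rose (30%, against 7.39% of all genes) and 0 fell. The median was 0.03, close to that of all genes. VIM, an intermediate filament of mesenchymal cells whose methylation is used in stool tests, went from 1.48 and 0.70 to 44.6 and 27.6 (4.14, SE 0.30), and THBS1, a matrix protein that inhibits vessel growth, from 3.20 and 2.25 to 19.0 and 15.5 (2.30). CDKN2A, which encodes the CDK inhibitor p16, was at 115 and 137 with shScr against 317 and 205 with shUHRF1. Its change of 1.02 (adjusted p = 0.016) was 0.98 after the GC correction and 0.71 without library 1, both under the fold threshold, and it was not called without shScr replicate 1 (0.90) or 2 (1.15).

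Of 9 tested secreted antagonists of WNT, 4 had both shScr libraries at a TPM of at most 1, where the filter sets the direction. The 1 member that rose (11.1% of the 9, against 7.39% of all genes) was among these 4. This was DKK4, an inhibitor that binds the LRP co-receptor, from 0.0822 and 0.406 to 34.5 and 30.6 (4.76, SE 0.22, adjusted p = 6.89e-06), while its relative DKK1 was at 1101 and 1050 with shScr against 681 and 842 with shUHRF1 (−0.51, adjusted p = 0.0493). Of 10 tested WNT target genes 2 rose and 2 fell (20% each, against 7.39% higher and 1.14% lower among all genes). AXIN2, a feedback inhibitor of the pathway, went from 3.99 and 4.81 to 23.1 and 15.9 (1.91), SOX4, a transcription factor of progenitor cells, from 22.2 and 20.2 to 6.11 and 8.81 (−1.41, not called with the UF1hypo libraries alone), and CD44, a hyaluronan receptor, from 326 and 319 to 134 and 188 (−1.01). CD44 was at −0.93 after the GC correction and −0.77 without library 1, and was not called without shScr replicate 1 or 2 (−0.9992 and −1.03). MYC was at 252 and 217 against 210 and 204 (−0.18, adjusted p = 0.446).

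Most tested keratins and some of their hair-type partners rose. Of 19 tested keratin genes 12 rose (63.2%, against 7.39% of all genes) and 0 fell, with a median of 1.37. After the GC correction 11 rose. KRT14, a keratin of basal cells, went from 1.13 and 0.941 to 28.5 and 20.1 (3.62), and KRT5, its partner, from 2.04 and 0.925 to 16.1 and 10.2 (2.51). KRT20, a keratin of differentiated colonocytes and umbrella cells, went from 9.28 and 9.06 to 75.0 and 111 (3.18, adjusted p = 7.51e-05). The simple keratins that dominate the summed TPM had smaller differences, with KRT8 at 3453 and 3499 against 5035 and 3525 (0.28, adjusted p = 0.333) and KRT18 at 2324 and 2353 against 3394 and 2938 (0.43, adjusted p = 0.0548). Of 94 keratin-associated protein genes 12 were tested and 5 rose (41.7%, against 7.39% of all genes). Of the 12, 9 had both shScr libraries at a TPM of at most 1, 3 of which rose, and the filter sets their direction. The TPM summed over the 94 was 7 and 6 with shScr against 738 and 483 with shUHRF1, where it was mostly KRTAP3-1. Genes of the KRTAP4 group and the pair KRT6A and KRT6B are close copies, so their single values are uncertain. Of 10 tested squamous and cornified envelope genes 2 rose (20%, against 7.39% of all genes), and the other 8 were not called.
KRTAP3-1 lies on the minus strand of chromosome 17, and the 250 bases before its RefSeq start site, chr17:41009129-41009378, are shown with CpG sites in capitals as a contrast in CpG content.
KRTAP3-1: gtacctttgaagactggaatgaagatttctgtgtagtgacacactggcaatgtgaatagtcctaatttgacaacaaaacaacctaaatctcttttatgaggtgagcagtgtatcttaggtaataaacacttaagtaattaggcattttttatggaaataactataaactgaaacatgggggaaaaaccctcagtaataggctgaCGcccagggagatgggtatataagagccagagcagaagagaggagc
They hold a single CpG site and the letters TATAAA beginning 89 bases before the start site. That motif, searched on both strands, was found in 10 of 11 tested keratin-associated genes with a promoter entry and in 5.92% of all tested genes with an entry (11.3% of all promoters in the table).

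Genes of the gut epithelium moved both ways. Of 9 tested trefoil factors and mucins 7 rose (77.8%, against 7.39% of all genes) and 0 fell. For 5 of the 7 both shScr libraries had a TPM of at most 1, so the filter sets their direction. TFF2 and TFF3 among the 7 also belong to the TSGs of the study. MUC4, a membrane mucin, went from 0.465 and 0.527 to 5.80 and 4.11 (1.98). Of 19 tested transcription factors of endoderm and intestine 5 rose (26.3%, against 7.39% of all genes) and 1 fell (5.26%, against 1.14%). For 3 of the 5, HNF4A and GATA5 among them, both shScr libraries had a TPM of at most 1, so the filter sets their direction. GATA6, a factor of endoderm, went from 4.25 and 4.35 to 10.5 and 12.8 (1.24). GATA5, also among the TSGs, was listed at 0 in both shScr libraries and at 5.69 and 2.77 with shUHRF1. HNF4A, a master regulator of the gut and liver epithelium, had 0.313 and 0.0545 against 2.67 and 1.2 (1.27, adjusted p = 0.0187), and without library 1 its change was 0.90, under the threshold. Without shScr replicate 1 or 2 neither HNF4A (1.43 and 1.11) nor GATA6 (1.23 and 1.26) was called. ELF3, an epithelial ETS factor, fell from 143 and 138 to 64.2 and 48.1 (−1.32, adjusted p = 0.00253). CDX2, which defines the intestine, was not called.

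Of 23 tested genes of cell junctions 2 rose and 0 fell, a share of 8.70% that is near the 7.39% of all genes. For both of the 2 the shScr libraries had a TPM of at most 1, so the filter sets their direction. CLDN6, an embryonic claudin, went from 0.138 and 0.0745 to 24.1 and 13.7 (4.12), while CDH1, which encodes E-cadherin, was at 58.7 and 52.8 against 102 and 112 (0.93, adjusted p = 0.00478) and missed the fold threshold. Of 11 tested mesenchymal genes 4 rose (36.4%, against 7.39% of all genes) and 1 fell (9.09%, against 1.14%). For 2 of the 4, SPARC among them, both shScr libraries had a TPM of at most 1, so the filter sets their direction. SPARC, a matrix protein, went from 0.0253 and 0.217 to 41.0 and 33.3 (5.09), FN1, or fibronectin, from 8.06 and 9.31 to 45.0 and 38 (2.13), and S100A4, named above, was the gene that fell. Of 10 markers of stroma and endothelium 1 was tested, COL1A1, a collagen chain of fibroblasts. It was at 22.5 and 28.5 with shScr against 65.5 and 37.7 with shUHRF1 (0.94, adjusted p = 0.0518), not called, but called without library 2 at 1.34. COL1A2, LUM and PDGFRA were listed at 0 in all 4 libraries, DCN and PECAM1 did not exceed 0.0765, and VWF and PDGFRB did not exceed 0.728. The part of such cells in the result was not tested.

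Among MAPK output genes, 2 growth factors of the EGF family were called, in opposite directions. HBEGF, an EGFR ligand, went from 6.74 and 7.95 to 23.2 and 21.7 (1.5), and EREG, another, from 94.2 and 79.1 to 19.4 and 51.2 (−1.42, adjusted p = 0.0362). EREG fell by 2.1 in library 1 and 0.743 in library 2, and it was not called without library 1, nor without shScr replicate 1 (−1.30) or 2 (−1.55). These were the only 2 of the 20 tested MAPK output genes that were called (5.0% each way, against 7.39% higher and 1.14% lower among all genes). The ligands AREG and TGFA of that list were not called.

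Among hypoxia and glycolysis genes more members fell than rose. Of 42 tested 6 fell (14.3%, against 1.14% of all genes) and 2 rose (4.76%, against 7.39%). The median was −0.48, with −0.50 in library 1 and −0.43 in library 2. At an unadjusted p below 0.05, 24 were lower. After the GC correction 13 fell, and with library weights 3. PDK1, which diverts pyruvate from mitochondria, went from 4.59 and 4.09 to 0.658 and 1.12 (−1.51, adjusted p = 0.0027). CA12, another membrane carbonic anhydrase, went from 5.01 and 4.57 to 0.928 and 1.36 (−1.44), and EGLN3, a hydroxylase of HIF, from 10.5 and 10.1 to 3.48 and 2.95 (−1.42). NDRG1, a hypoxia-induced differentiation gene, was at 290 and 322 against 165 and 144 (−0.98, adjusted p = 0.00618) and was called after the GC correction at −1.2. LDHA, which makes lactate, was at 1050 and 981 against 520 and 769 (−0.68, adjusted p = 0.0455). The glucose transporters were the 2 that rose, SLC2A3 from 3.47 and 2.59 to 66.1 and 94.3 (4.32, adjusted p = 1.71e-05) and SLC2A1 from 149 and 175 to 411 and 292 (1.1, and 0.92 after the GC correction). SLC2A1 was at 0.85 without library 1 and 0.98 without shScr replicate 1, and EGLN3 was not called without shScr replicate 1 (−1.40).
The window before the start site of CA9, which had the largest decrease, is chr9:35673678-35673927 on the plus strand, with CpG sites in capitals.
CA9: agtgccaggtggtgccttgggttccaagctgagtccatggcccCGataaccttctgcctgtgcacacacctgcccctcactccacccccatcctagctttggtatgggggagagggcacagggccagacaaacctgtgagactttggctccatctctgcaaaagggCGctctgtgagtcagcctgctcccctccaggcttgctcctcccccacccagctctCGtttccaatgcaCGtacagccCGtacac
The core of the hypoxia response element, ACGTG on either strand, begins 18 bases before the start site there, on the opposite strand. It was found in 19 of 36 listed genes with a promoter entry (52.8%) and in 3 of the 6 that fell, against 22.6% of all tested genes with an entry and 18.5% of all promoters in the table. The letters overlap the E-box CACGTG, which contains them.

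Stress and cell cycle genes gave smaller changes. Of 29 tested genes of the integrated stress response 6 rose (20.7%, against 7.39% of all genes) and 0 fell, with a median of 0.33. CHAC1, which breaks down glutathione, went from 16.9 and 18.1 to 75.2 and 68.2 (1.97), ATF5, a transcription factor translated under stress, from 34.4 and 36.5 to 193 and 155 (2.26), and DDIT3, which encodes CHOP, from 22.7 and 17.2 to 41.7 and 48.9 (1.15, and 0.96 without shScr replicate 2). The larger number of that list, amino acid and tRNA synthesis genes included, was not called. Of 29 tested p53 target genes 2 rose, a share of 6.90% that is near the 7.39% of all genes, with a median of 0.04. PHLDA3, an AKT inhibitor, was at 45.9 and 49.7 against 133 and 97.2 (1.24, but 0.9994 after the GC correction), while CDKN1A, the CDK inhibitor p21, was at 427 and 455 against 357 and 283 (−0.47, adjusted p = 0.0762). CDKN2B, which encodes p15, went from 4.62 and 4.23 to 13.3 and 11.1 (1.28), but was not called with the UF1hypo libraries alone or with library weights.

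Calls among proliferation genes depended on the libraries used. Of 44 tested DNA replication genes 0 were called by limma, with a median of −0.11 and 1 higher and 1 lower at an unadjusted p below 0.05. Of 40 mitotic genes 0 were called as well, with 9 lower at an unadjusted p below 0.05. Their median of −0.45 was −0.77 in library 1 and −0.09 in library 2, so that the lower level of mitotic genes was mostly that of library 1. Without library 2, 14 mitotic and 6 DNA replication genes were called lower. The 81 cytosolic ribosomal protein genes gave 0 calls and a median of −0.37, with −0.40 and −0.35 in the libraries, and 37 were lower and 1 higher at an unadjusted p below 0.05, and 9 were called lower without library 2. Of 68 tested subunits of oxidative phosphorylation 1 rose and 1 fell (1.47% each, against 7.39% higher and 1.14% lower among all genes). COX6B2, the testis form of a cytochrome c oxidase subunit, rose from 4.66 and 6.08 to 21.7 and 16.1. COX6C, another subunit, fell from 242 and 212 to 66.1 and 121 (−1.33, and −0.90 without library 1). COX6C was not called without shScr replicate 1 (−1.23). Without library 2, 10 subunits were called lower. ACTB, often a reference gene, was at 2147 and 2244 against 4728 and 3565 (0.90, adjusted p = 0.00644), below the fold threshold.

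Long non-coding RNAs, tested in a fit on all 18796 annotated genes with a TPM above 1, gave more calls higher than lower. Of 3015 tested, 283 (9.39%) rose and 17 (0.564%) fell, with a median of 0.284. Of those that rose 202 had a TPM of at most 1 in both shScr libraries, so that the filter set their direction. Of the 2054 with a shScr library above 1, 81 (3.94%) rose and 17 fell. Of all that rose 47 carry names that begin with LINC. LINC00958 (chromosome 11) was listed at 0 in both shScr libraries and at 40.6 and 52.3 with shUHRF1 (5.56). LINC02972 (chromosome 12) went from 0.561 and 0.53 to 47.6 and 41.3 (4.88), and ENSG00000287064 (chromosome 1) from 3.92 and 2.78 to 76.2 and 60.7 (4.0). MAGEA4-AS1 was at 0 in both shScr libraries and at 13.1 and 21.8 with shUHRF1 (4.16), but it lies antisense to MAGEA4, and without strand information reads of the pair cannot be told apart. The largest decreases were those of ENSG00000251361 (−2.07), listed at 0 in both shUHRF1 libraries, LINC02458 (−2.03), ENSG00000287778 (−1.58) and DMTF1-AS1 (−1.46), the last again named as antisense to a gene. ENSG00000287778 was not called without shScr replicate 1 or 2 (−1.52 and −1.64), and DMTF1-AS1 without either of them (−1.77 and −1.15) or without library 2 (−1.26).

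Genes that rose lay on every chromosome tested, in unequal shares. The X chromosome had 65 of 457 tested genes called higher (14.2%), and without the cancer-testis list 36 of 423 (8.51%). Chromosome 22 had 11.9% and chromosome 17 11.3%, whereas chromosome 4 had 4.54%. Their median GC contents differ, and after the correction the shares were 13.8% on X, 10.2% on 22 and 9.23% on 17. Among tested genes in order along the chromosomes, 30 runs of at least 3 neighbours that rose held 100 genes, and 7 runs held at least 4. The longest were GAGE10 to PAGE1 on the X chromosome (6 genes) and KRT81, KRT85, KRT6B, KRT6A and KRT5 on chromosome 12 (5 genes). Runs of 4 included KRT9, KRT14, KRT16 and KRT17 on chromosome 17 and NCCRP1 with IFNL3, IFNL2 and IFNL1 on chromosome 19. Runs of 3 included IFIT2, IFIT3 and IFIT1, OAS1, OAS3 and OAS2, PSMB8, PSMB9 and TAP1, and APOBEC3D, APOBEC3F and APOBEC3G. Many of these neighbours are members of 1 family and may share reads.

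**Figure D3:**
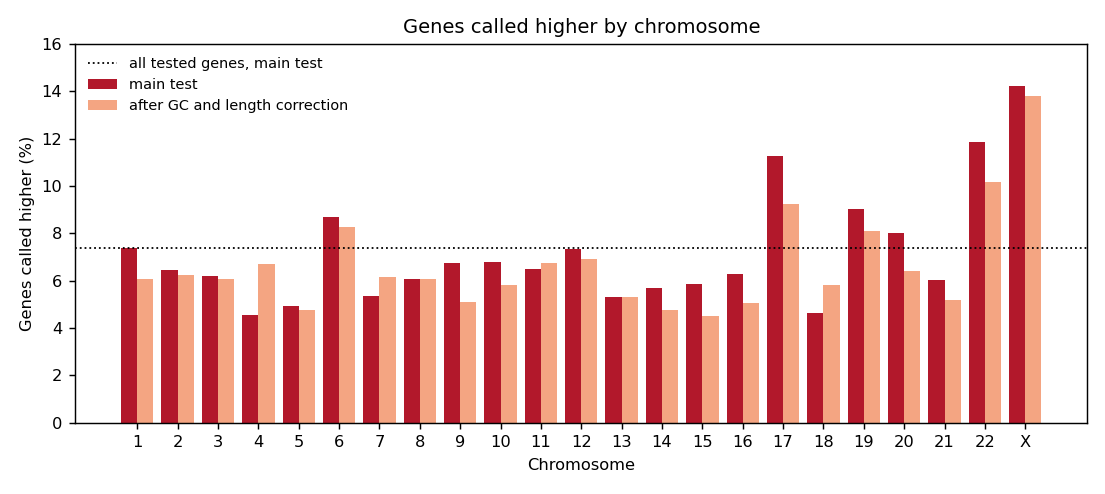
Percentage of tested protein-coding genes called higher on each chromosome, as bars before and after the GC and length correction, with the 7.39% of all tested genes as a dotted line. X stands highest at 14.2% and 13.8%, followed by chromosomes 22 and 17.

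CpG sites were counted in the promoters. A gene with more than 1 entry was counted at the entry of lowest coordinate, which may not be its main start site. In the 250 bases before the RefSeq start site, the 722 genes called higher with an entry had a median of 10 CpG sites, the 125 called lower 17 and the genes not called 21. Expression in the controls moved with this count. Among genes with both shScr libraries at a TPM of at most 1, the median was 8 in the 315 that rose and 9 in the 405 that did not. The 407 that rose with a shScr library above 1 had a median of 14, below the 21 of genes not called. Genes are not independent, and no test of these medians was made. CpG content says what can be methylated in that window and not whether it was, and DNA methylation was not analysed here.

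Of 16 leukocyte markers 4 were tested and 2 rose (50%, against 7.39% of all genes). For CD3D, 1 of the 2, both shScr libraries had a TPM of at most 1, so the filter sets its direction. CD3D, a T cell receptor subunit, was at 0 and 0.287 with shScr against 5.05 and 2.99 with shUHRF1 (2.12), and CD68, a lysosomal protein of macrophages, was at 40.6 and 42.6 against 107 and 77.7 (1.11, 0.97 after the GC correction and 0.88 without library 1). CD68 was not called without shScr replicate 1 or 2 (1.08 and 1.15). PTPRC, the pan-leukocyte antigen CD45, did not exceed a TPM of 0.0728, and CD2 and FCGR3A were listed at 0 in all 4 libraries. The summed TPM of the list was 43 and 45 with shScr against 118 and 84 with shUHRF1, mostly CD68. The defining leukocyte markers were thus at or near 0 in the libraries in which the interferon-stimulated genes rose.

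The knockdown effect was also tested against that in HCT116, where the same hairpins were used. The difference of the effects was called for 5.09% of 13781 genes (702), with 625 more positive and 77 more negative in UF1hypo cells. By list, the effect in UF1hypo was more positive for 25 of 35 cancer-testis antigens, for 33 of 62 interferon-stimulated effectors and for 10 of 22 class I genes, and more negative for 0 in each of them. In 8 of 19 keratins and 11 of 29 stress response genes it was more positive as well. Both lines enter this difference, so the UF1hypo values are part of it and it is no independent check of them. For UHRF1 the difference was not called.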

How the data were processed

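PolyA RNA of the 8 libraries was sequenced in pairs of reads, and per the study's methods Fastp trimmed the reads, HISAT2 2.0.4 aligned them to GRCh38 and StringTie 2.1.4 quantified genes. The deposited TPM values were scaled by the authors for gene length, and sum to an equal total in each library. The deposited FPKM values were scaled by the authors for gene length and library, and the deposited coverage is the mean per-base signal of a gene, unscaled, from which with FPKM the aligned bases were recovered. The files hold no read counts, so DESeq2, the study's own tool, could not be used here.

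Of 60605 gene identifiers, 60463 matched GENCODE version 44, of which 19942 were protein-coding. Values of log2(TPM + 1) of the 8 libraries entered 1 limma 3.58.1 fit (R 4.3.3, variance trend, 4 group means, 4 residual degrees of freedom). The filter (TPM above 1) and thresholds (adjusted p below 0.05, absolute log2 fold change above 1) follow the study. The fit was tested on simulated data. Python 3.11.15 did the rest.

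The members, gene lists and GC correction were chosen with earlier results of these data known. The genes with values were drawn from UHRF1, the 12 called genes with the largest change each way at a group mean TPM of at least 10 and with both libraries outside the control range, the 6 with the largest TPM change each way, the defining and up to 4 most changed members of each list each way, and 4 lncRNAs each way. Symbols without values name members of a list or a run, and were chosen after their values were seen. Genes of the Y chromosome and XIST were left out. Some defining members are not reported here. Promoter sequences are those of RefSeq (GRCh38.p14), matched by symbol for 10820 tested genes. Alternatives changed the pseudocount (0.1), filter, gene class, unit, scaling, variance model, library weights, GC content and length (10 bins each), records, pairing and libraries. Replicate numbers come from the titles, and nothing says that they pair the libraries.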

Additional observations from a re-analysis of the deposited data

Results flagged for a closer look

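The knockdown effect in UF1hypo cells differed from that in HCT116 cells by a test of the difference itself in 702 genes (limma, adjusted p below 0.05 and an absolute difference of log2 fold changes above 1). The named genes among them follow with the difference, UF1hypo minus HCT116, on the log2 scale. Each was estimated from 2 libraries in each of 4 groups, and a positive value says only that the effect was the more positive in UF1hypo cells.

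Among germline and cancer-testis genes the differences were CTAG2 6.12, GAGE2A 5.54, PNMA5 6.56, MAGEA4 3.40, MAGEA1 4.96, MAGEA10 5.07, SSX1 2.80, MAEL 2.62 and LIN28B 1.58. Sensors and signalling genes of interferon had IFIH1 1.56, DHX58 3.24, ZBP1 2.12, IRF7 1.69, IFNL1 3.30, IFNL3 2.92, IRF9 1.33 and USP18 2.28. Interferon-stimulated effectors had MX1 6.74, ISG15 1.49, IFITM1 3.07, BST2 3.26, OAS1 2.03, OAS2 5.20 and XAF1 4.44, and LY6E and the deaminase APOBEC3G, outside that list, had 1.55 and 4.12. Antigen presentation and cytokine genes had HLA-B 1.96, TAP1 1.30, NLRC5 2.35, PSMB8 4.75, PSMB9 1.76, CD74 2.27, CCL5 2.81 and IL32 4.54, and the leukocyte markers CD3D and CD68 had 1.90 and 1.95.

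Keratins and their partners had KRTAP3-1 6.15, KRT17 6.14, KRT81 5.42, KRT20 2.98, KRT14 3.64 and KRT5 2.06. Genes of gut epithelium, junctions and matrix had GATA5 2.26, MUC4 2.02, CDH1 1.14, CLDN6 3.92, SPARC 3.61, FN1 1.98, VIM 1.95 and THBS1 2.38, with ELF3 at −1.16 and S100A4 at −1.65. Of WNT and growth factor genes, DKK4 had 4.36, HBEGF 2.50, SOX4 −2.70 and WNT16 −2.03. The TSG UCHL1 had 5.28.

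Stress, cell cycle and metabolic genes had DDIT3 1.91, CHAC1 3.24, ATF5 2.06, CDKN2B 1.38, CDKN1A −1.23, SLC2A3 3.28, COX6B2 1.63, COX6C −1.52, SLC15A3 5.86 and GPX3 5.83. The more negative effects in UF1hypo cells also included CA9 −2.65, RAB26 −2.55, ANXA10 −2.65, HS3ST1 −2.26, NR2F1 −2.31, GNAI1 −2.43, SCG2 −1.64, ADIRF −1.57, SAT1 −2.05, HMGB2 −1.97 and HOXA9 −1.46. No sample could be tested as standing apart within its group, since the groups hold 2 libraries. The differences share the UF1hypo libraries with the comparison in the report, so that these differences are no second measurement of it.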

How the results depend on the processing

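Of 126 named genes under 19 alternatives, 2249 values kept their direction and their call or lack of one, 112 lost a call, 24 gained one and 0 changed sign while called. The 1162 calls became 563 with the UF1hypo libraries alone (516 higher, 47 lower), 749 with FPKM (615 higher) and 539 with library weights (476 higher, 63 lower). Quantile normalization gave 669 higher and 335 lower. UHRF1 was called at −1.01 after the GC and length correction (adjusted p = 0.0017) and in that fit with the replicate block (adjusted p = 0.00385), and its adjusted p was 0.2 with UF1hypo alone, 0.124 with library weights, 0.0669 with the block alone, 0.0573 with no filter, 0.0509 with median-ratio scaling and 0.0501 with quantile normalization. The difference of effects called 448 genes with a pseudocount of 0.1 and 419 with library weights, and it could not be fitted with UF1hypo alone. Hypoxia genes lower numbered 3 with library weights and 13 after the correction, with or without the block. Of lncRNAs 99 were called with UF1hypo alone, 137 with FPKM and 84 with library weights. Leaving out each UF1hypo library in turn gave 655 to 2255 genes called, 591 to 1394 higher, 64 to 861 lower, UHRF1 changes of −1.17 to −0.51, 241 to 2142 differences, 24 to 29 cancer-testis genes higher, 38 to 54 interferon-stimulated effectors higher, 5 to 12 hypoxia genes lower and 103 to 491 lncRNAs. The high ends for genes called lower and for the differences came without library 2. The calls most often lost were those of CDKN2A (10 alternatives), NNAT (9), CD68 and HNF4A (7 each). With UF1hypo alone 21 genes lost their call and with library weights 19, among them IFI27, CA12, EGLN3 and COX6B2. The cause of these changes was not tested. The replicate block called 1110 genes, and no named gene gained or lost a call. The same-numbered UF1hypo libraries deviated in opposite directions (r = −0.404), and crossing the numbers, an alternative chosen after seeing the data, called 1207. Depth per gene is unknown, so values near a TPM of 0 have no counting error here.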

Other observations

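Developmental, imprinted and immune signalling genes outside the groups described so far were called as follows, where 7.39% of all tested genes were higher and 1.14% lower. Of 28 tested HOX genes, which set position along the body axis, 2 rose (7.14%) and 3 fell (10.7%), with a median log2 fold change of 0.11. HOXB2 went from a TPM of 1.38 and 1.53 with shScr to 10.2 and 7.90 with shUHRF1 (2.02, adjusted p = 0.0106, limma), and HOXA9 from 131 and 130 to 65.1 and 59.8 (−1.06, adjusted p = 0.00159). HOXB2 was not called without shScr replicate 1 or 2 (1.98 and 2.07), nor HOXA9 without shUHRF1 replicate 2 (−0.9956). Of 18 tested imprinted genes, whose parental copies differ in methylation, 1 rose and 1 fell (5.56% each). NNAT, a neuronal proteolipid, was at 0.762 and 0.898 against 3.41 and 2.26 (1.05, and 0.90 after the GC correction), and KCNQ1, a potassium channel, went from 8.40 and 8.39 to 3.30 and 2.88 (−1.20). NNAT was not called without shUHRF1 replicate 1 (0.83), and neither gene was called without shScr replicate 1 or 2.

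Of 13 tested chemokines and cytokines 2 rose (15.4%) and 0 fell. CCL5, which attracts T cells, was at 0 and 0.181 with shScr and 4.49 and 5.27 with shUHRF1 (2.43, adjusted p = 0.000147), and IL32, a cytokine of epithelial and lymphoid cells, at 1.85 and 0.122 against 33.7 and 10.1 (3.46). The levels of IL32 differed within both groups. Of 6 tested metallothioneins 1 rose. Of 5 tested clustered protocadherins and of 3 tested envelope genes of endogenous retroviruses, limma called 0, with 1 and 1 higher and 0 and 1 lower at an unadjusted p below 0.05.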
